A study of Zea mays with 3 samples.

Results

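The centromere interval of maize chromosome 8 was examined as 1600 bins of 10 kb, from 44 to 60 Mb of B73 RefGen_v4, out of 210639 bins on chromosomes 1 to 10. The interval was selected on the measured CENH3 read levels of these same libraries, as it holds the B73 centromere of the chromosome, where both F3 lines had low levels. All 1600 bins were kept for counts of bins, and none was left out there for a low value. Medians and quartiles over parts of the interval, and correlations, used only bins with reads. Medians of 100-kb windows included empty bins. The maize line B73, labelled as the control, and the maize lines F3-152 and F3-600 were each represented by 1 anti-CENH3 ChIP-seq library from young leaves. The series title speaks of irradiated materials, and the labels give no further allele, treatment or age for any of these lines and do not say how many plants were pooled. Chromatin was cut with micrococcal nuclease and precipitated with a rabbit antiserum raised against peptides of maize CENH3, and DNA was sequenced as paired ends.

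A centromere is the part of a chromosome on which the kinetochore assembles and to which spindle fibers attach during cell division. CENH3 replaces the usual histone H3 in many of the nucleosomes there, so its place along the DNA shows where the active centromere lies. Maize centromeres are rich in the satellite CentC and in centromeric retrotransposons of the CRM family, and in plants the position of CENH3 can differ between lines without a matching difference in the underlying repeats.

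The B73 library held 7716211 aligned reads, the F3-152 library 21026602 and the F3-600 library 14454963. Reads were counted by midpoint, and each count was divided by the median of the library's non-empty bins on chromosomes 1 to 10, which was 32 reads in B73, 90 in F3-152 and 64 in F3-600. This quotient is called the level, so that a level of 1 is the typical bin of that library. A bin at a level of 10 or more is called enriched. With 1 library per line there was no replicate, no spread between samples and no test between lines, and the 95% intervals given over fragments are exact and cover counting error only. They are too narrow because duplicates were kept. Distinct reads made up 79.8% of the B73 library, 96.3% of F3-152 and 96.4% of F3-600. Each line was sequenced in a run of its own and to its own depth, so line, run and depth cannot be told apart.

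B73 carried a broad CENH3 domain in the middle of the interval, and neither F3 line did. In B73, 110 of the 1600 bins were enriched, against a genome share of 0.348% of all bins. In F3-152, 5 bins were enriched (genome share 0.306%), and in F3-600 there were also 5 (genome share 0.233%). The enriched bins of the F3 lines all lay outside the B73 domain, in 2 narrow sites that B73 shared. The interval took 2.27% of the B73 fragments (2.26% to 2.28%), 1.10% of the F3-152 fragments (1.10% to 1.11%) and 1.05% of the F3-600 fragments (1.05% to 1.06%).

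**Figure D1:**
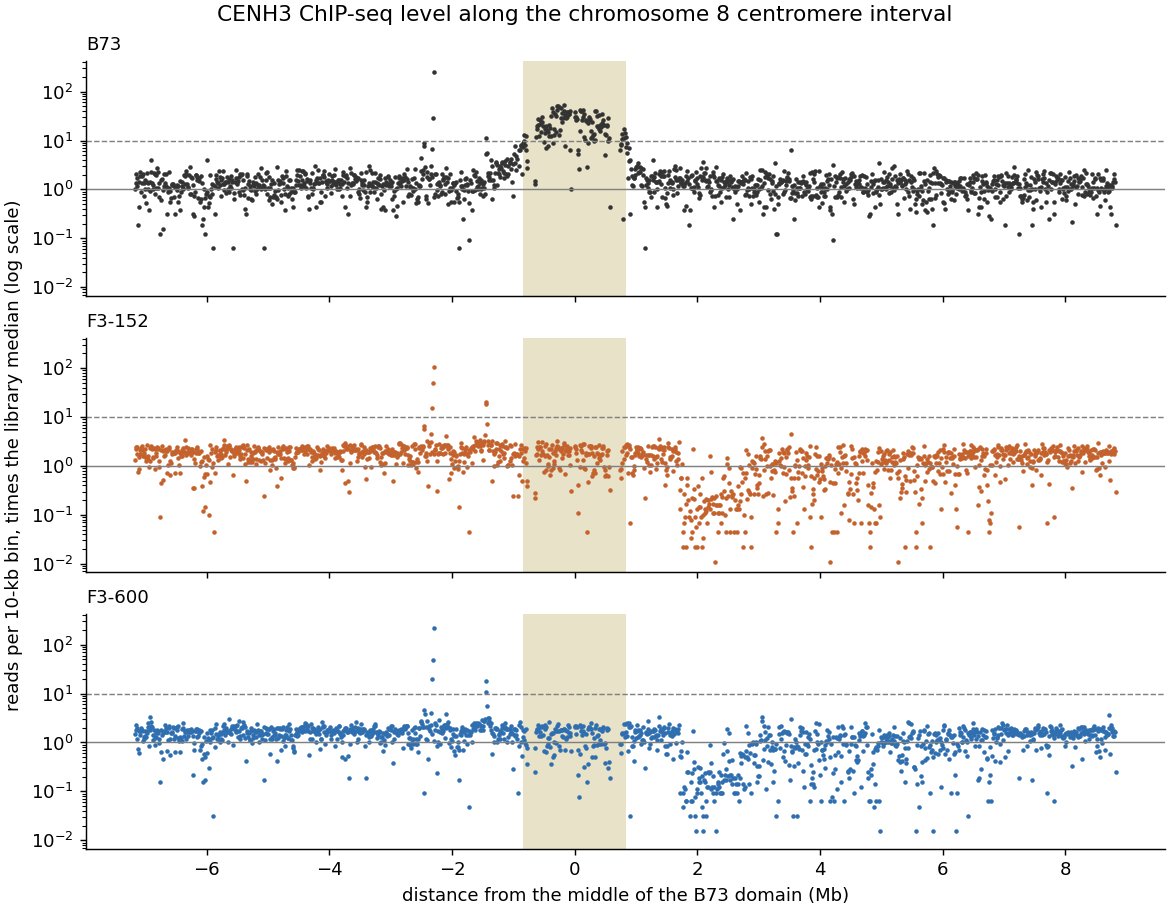
Level of each 10-kb bin with reads (log scale) against the distance from the middle of the B73 domain in Mb, for B73, F3-152 and F3-600. Shading marks the B73 domain, the solid line a level of 1 and the dashed line the enrichment threshold of 10. The 107 enriched B73 bins of the domain stand above the dashed line, while in both F3 lines the same bins lie at the height of the bins on their left.

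The B73 domain ran from 50340001 to 52010000, a span of 1.67 Mb. It held 107 enriched bins, called the core below, which covered 64.1% of the span and took 85511 reads. Because B73 chose these bins, their B73 level is a description. The lowest core level in B73 was 10.4, the median 23.1 (quartiles 15.2 and 32.05) and the highest 53.0. The threshold cut close to some bins: the core bins starting at 51340001 and 51500001 had levels of 10.4 and 10.4, while the highest bins of the span outside the core, starting at 51490001 and 51720001, had levels of 9.78 and 9.75.

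The core was broken rather than continuous. Its 107 bins formed 17 unbroken runs, of which the longest held 20 bins from 50820001 to 51020000. Merged over gaps of up to 50 kb they made 4 blocks. Most of the core lay in the second block, from 50540001 to 51100000 with 50 core bins, and in the third, from 51170001 to 51740000 with 49. Their B73 medians were 26.7 and 23.7. The small blocks at the margins were lower, with a B73 median of 12.6 over 2 bins from 50340001 to 50380000 and of 12.8 over 6 bins from 51940001 to 52010000. Of the 60 bins of the span outside the core, 33 had no read in any of the 3 libraries. Since the authors kept uniquely mapped reads in B73, sequence that matches several places can appear empty. Why these 33 bins were empty was not tested. The 27 other bins with B73 reads had a B73 median of 6.47, above the surroundings although below the threshold.

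The highest B73 bins of the core lay together within its second block. The bin starting at 50990001 had 1695 reads in B73, a level of 53.0, from 1065 fragments (1002 to 1131). It had 267 reads in F3-152, a level of 2.97, from 139 fragments (117 to 164). In F3-600 it had 120 reads, a level of 1.88, from 63 fragments (48.4 to 80.6). The bins starting at 50890001, 50900001 and 50910001 were at B73 levels of 50.8, 50.3 and 49.4, and at 2.58, 2.48 and 2.26 in F3-152 and 1.72, 2.36 and 1.72 in F3-600. So the peak of the B73 domain was at most 2.97 times the library median in either F3 line in these 4 bins.

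Over the whole core, F3-152 had a median level of 1.98 (quartiles 1.48 and 2.43), with a lowest bin of 0.611 and a highest of 3.20. F3-600 had a median of 1.70 (quartiles 1.26 and 1.96), between 0.312 and 2.61. The ranges of the F3 lines did not overlap that of B73, which began at 10.4 because the core was cut at a level of 10. Over the genome, 0.306% of F3-152 bins and 0.233% of F3-600 bins reached that level, so the lack of overlap is a description. The B73 median was 11.7 times that of F3-152 and 13.6 times that of F3-600. All 107 core bins were at least 4-fold lower in F3-152 than in B73, where 14.9% of all bins with B73 reads were, and all 107 were at least 4-fold lower in F3-600, where 16.2% were. The core was selected for high values in B73, so these counts describe the bins and do not test them. The same held block by block: F3-152 medians in the 4 blocks were 2.33, 2.06, 1.86 and 2.23, and F3-600 medians were 1.77, 1.70, 1.73 and 1.55.

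**Figure D2:**
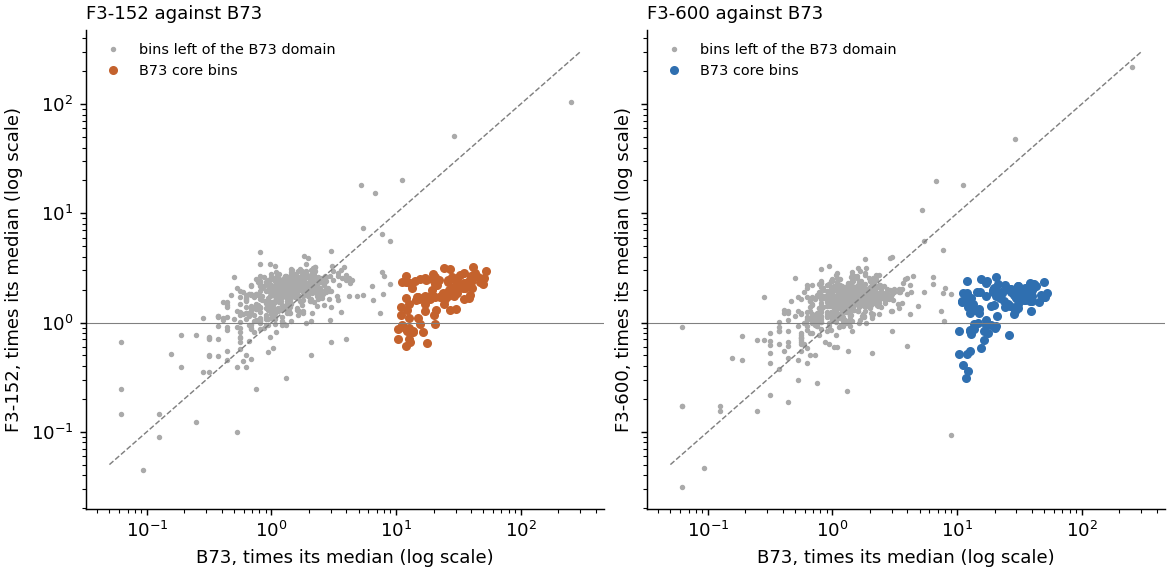
Level of each bin in F3-152 (left) and F3-600 (right) against its level in B73, both on log scales, with B73 core bins in color, bins left of the B73 domain in gray and a dashed line of equal levels. The core bins spread from 10.4 to 53.0 in B73, and they reach at most 3.20 in F3-152 and 2.61 in F3-600, the height of the gray cloud.

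The core was then set against the bins beside it in the same library. The far left flank is the stretch from 44 Mb to the bin that ends at 49500000. Leaving out its 5 bins at a level of 5 or more in any library, its median was 1.25 in B73, 1.89 in F3-152 and 1.63 in F3-600. The core median over this was 18.5 in B73, 1.05 in F3-152 and 1.05 in F3-600. In fragments per kb, the core was 18.6 times as dense in B73 (18.3 to 19.0), 1.07 times in F3-152 (1.04 to 1.09) and 1.02 times in F3-600 (0.994 to 1.05). The F3-600 interval includes 1, so an excess over the left flank was not detectable at this depth. The F3-152 interval lies above 1, but it leaves out the spread between bins. The order-statistic interval of the F3-152 median over bins was 1.76 to 2.26 in the core and 1.83 to 1.93 in this flank, and these overlap. The core was also chosen for high B73 levels, and 0 of its 107 bins were below 0.5 in F3-152, against 22 of 545 flank bins. An excess in F3-152 was therefore not established. Against all bins of the interval outside the span, the ratio of medians was 18.0 in B73, 1.24 in F3-152 and 1.21 in F3-600, because the right flank of the F3 lines was low.

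Within the core, the reads of each library were spread over many 1-kb windows, and the libraries were not matched for depth. The median window held 79 reads in B73, 18 in F3-152 and 10 in F3-600, so counting error weighs more in the F3 lines. In B73, 8.32% of the 1070 core windows had no read, compared with 11.9% in F3-152 and 11.6% in F3-600. The windows in the top 10% held 21.2% of the core reads in B73, 21.3% in F3-152 and 23.4% in F3-600. The highest 1-kb window stood at 72.8 times the typical 1 kb of the library in B73, 7.89 times in F3-152 and 8.28 times in F3-600. Over the 10-kb core bins, the standard deviation of reads divided by their mean was 0.444 in B73, 0.336 in F3-152 and 0.339 in F3-600. Across the 107 core bins the levels of B73 and F3-152 had a Spearman rho of 0.594, those of B73 and F3-600 0.468, and those of the F3 lines 0.711. In the far left flank, where B73 had no domain, the same values were 0.599, 0.519 and 0.718. The bins are the same places of the B73 reference in all 3 libraries. Whether the F3 lines carry the same sequence there, and how much of these correlations comes from it, was not tested.

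Fragment length and mapping quality were measures that the choice of bins did not use. The median length of paired fragments in the core was 184 bp in B73, against 185 bp in the far left flank without its 5 high bins. It was 166 and 169 bp in F3-152 and 303 and 304 bp in F3-600. Core and flank thus differed by at most 3 bp in these medians, and the libraries differed from each other much more than core and flank did. Reads at the highest mapping quality of 60 made up 61.2% of core reads in B73, 59.96% in F3-152 and 58.004% in F3-600. Duplicates made up 23.6% of core reads in B73, 2.28% in F3-152 and 1.46% in F3-600.

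The 2 margins of the B73 domain differed in shape. On the left, the B73 medians of successive 100-kb windows from 49800001 to 50300000 were 1.88, 2.66, 2.25, 3.38 and 4.52, and the window from 50.3 Mb was at 7.97. On the right, the window from 52.0 Mb was at 4.84, and the next windows were at 1.94, 2.27 and 1.17. The left slope therefore stretched over several 100-kb windows and the right one was at the level of the surroundings sooner. From 49800001 to the span, the median bin was at 3 in B73, 1.78 in F3-152 and 1.60 in F3-600. In the F3 lines the windows of the left slope ranged from 1.53 to 2.11 in F3-152 and from 1.20 to 1.89 in F3-600, with no rise toward the domain.

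Beside the domain, the bins from 49500001 to 49800000 stood out in both F3 lines, although far below the enrichment threshold. These bounds were chosen after the levels had been seen. The 30 bins had a median level of 1.45 in B73, 2.78 in F3-152 and 2.41 in F3-600. Relative to the far left flank of the same library, the medians were 1.13, 1.47 and 1.48 times as high. The 3 successive 100-kb windows had medians of 2.63, 2.72 and 3.13 in F3-152 and of 2.26, 2.24 and 3.13 in F3-600, and the windows before and after them were at 1.66 and 2.11 and at 1.43 and 1.70. In B73 these 3 windows were at 1.297, 1.12 and 2.

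This raised stretch was not made by a few bins. Because the bounds were set with these levels known, the counts and intervals below describe the stretch and do not test it. Of the 30 bins, 23 in F3-152 and 25 in F3-600 were above the upper quartile of the far left flank of the same library, and in B73 there were 12. F3-152 was above B73 in 30 of the 30 bins and F3-600 in 28, but in the far left flank 85.1% and 70.7% of bins were also above B73. A narrow site of 2 bins lies within it. With the 3 bins at a level of 5 or more in any library left out, and the same done for the far left flank, the fragments per kb were 1.54 times those of the far left flank in F3-152 (1.49 to 1.60), 1.56 times in F3-600 (1.49 to 1.63) and 1.07 times in B73 (0.995 to 1.15). The bin starting at 49710001, just before the narrow site, had 26 reads in B73, a level of 0.813. It had 394 reads in F3-152, a level of 4.38, of which 81.5% were at the highest mapping quality, and 198 reads in F3-600, a level of 3.09.

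Set against the rest of the genome, 0.570% of 7016 windows of 300 kb reached the level of this stretch in F3-152, and 0.670% did in F3-600. In B73, 2.02% reached its level there. On chromosome 8 it was the sole such window in each F3 line. Its bounds were chosen after the levels had been seen, so these ranks describe the stretch and do not test it. Among all windows of 500 kb within the interval, the highest median of F3-152 was 2.64, from 49490001 to 49990000, and that of F3-600 was 2.14, from 49500001 to 50000000. On the rest of chromosome 8, the highest was 2.03 in F3-152 and 1.72 in F3-600. No stretch of chromosome 8 of that length therefore had a median at the enrichment threshold in either F3 line. Outside the interval, 8 bins of chromosome 8 were enriched in F3-152 and 7 in F3-600, in runs of at most 4 bins, and in B73 there were 4.

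**Figure D3:**
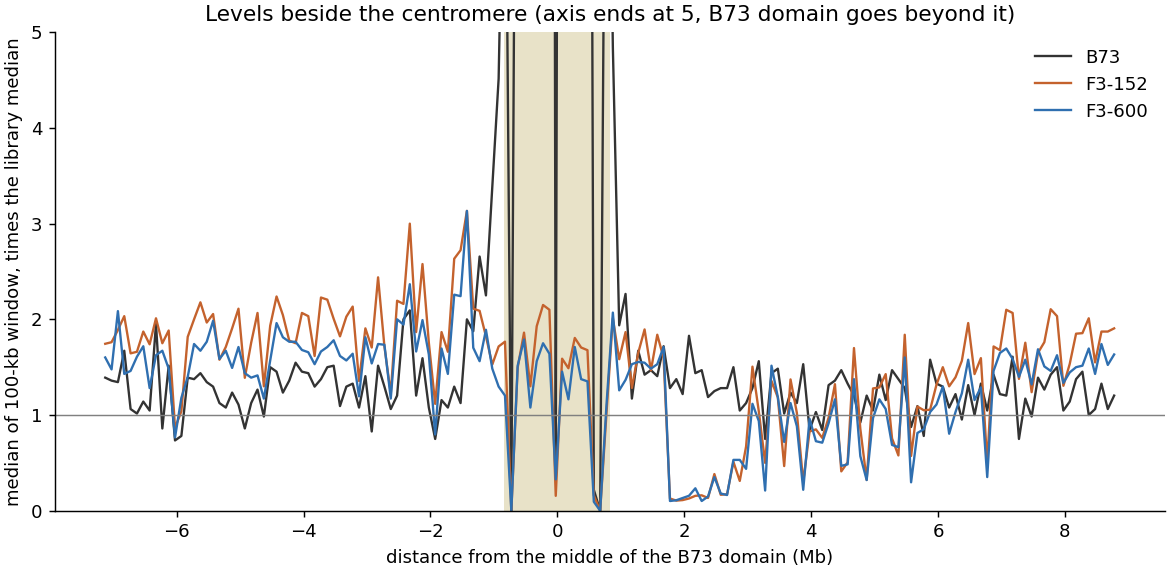
Median level of successive 100-kb windows (linear axis that ends at 5) against the distance from the middle of the B73 domain in Mb, for the 3 libraries. Both F3 lines are highest left of the shaded B73 domain, at 3.13 in 1 window each. In the windows wholly within the domain they stand between 1.02 and 2.15 in F3-152 and between 1.08 and 1.79 in F3-600. This leaves out 4 windows whose median is at most 0.5 in all 3 libraries. On the right of the domain the F3 lines drop to at most 0.383 over 1 Mb, where B73 stays between 1.19 and 1.83.

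The right flank held the second feature shared by the F3 lines, a stretch in which both had few reads. It was defined after the levels had been seen, as the longest run of 100-kb windows with a median below 0.5 in both F3 lines and of 0.5 or more in B73, so its low level is part of its definition. It ran from 52900001 to 53900000, or 10 windows. It had 100 bins with reads in B73, 97 in F3-152 and 94 in F3-600. Over these the median level was 1.36 in B73 (quartiles 1.03 and 1.66), 0.156 in F3-152 (0.0889 and 0.267) and 0.156 in F3-600 (0.0938 and 0.25). In fragments per kb it was 1.01 times the far left flank, without the high bins, in B73 (0.968 to 1.05), 0.157 times in F3-152 (0.148 to 0.166) and 0.173 times in F3-600 (0.162 to 0.185). Against the adjoining bins between the span and the low stretch, it was 0.697 times as dense in B73 (0.662 to 0.734), 0.169 times in F3-152 (0.159 to 0.179) and 0.184 times in F3-600 (0.171 to 0.198). B73 was thus near its far left flank there and below the bins next to its domain.

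The drop came within a few bins and at the same place in both lines. The bin starting at 52870001 was at 1.69 in B73, 3.11 in F3-152 and 2.27 in F3-600. The next, starting at 52880001, was at 2.75 in B73, 0.322 in F3-152 and 0.531 in F3-600. After a bin at 1.59 in B73, 1.10 in F3-152 and 1.02 in F3-600 that starts at 52920001, the bin from 52930001 was at 1.22, 0.0222 and 0.0469. Of the 100 bins, 85 were below 0.5 in F3-152 and 87 in F3-600, against 31.0% and 31.6% of bins in the genome, and 7 were in B73, against 15.4%. The 85 bins of F3-152 were all among those of F3-600, of which they made up 97.7%. Over the whole interval, bins below 0.5 in both lines made up 92.2% of such F3-152 bins and 90% of such F3-600 bins. The stretch was defined by low levels in both lines, so its counts and overlap describe it and do not test it.

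The F3 reads that remained in the low stretch differed in mapping quality from those around it. Reads at the highest mapping quality made up 21.9% in F3-152 and 21.5% in F3-600. The shares were 54.1% and 52.3% between the span and the stretch, and 51.2% and 49.2% beyond it to 58 Mb. From 58 to 60 Mb they were 60.5% and 57.9%. In B73 the share was 54.8% in the stretch, 54.2% between the span and the stretch, and 60.5% from 58 to 60 Mb. The part of mapping in the low level was not tested. Input DNA was not analysed here, so fewer CENH3 nucleosomes and less mappable DNA cannot be told apart.

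From 53.9 to 58 Mb the F3 lines alternated between low bins and bins at the usual level. Over the 407, 406 and 401 bins with reads in B73, F3-152 and F3-600, the median was 1.19, 1.05 and 0.922. The lower quartile was 0.844, 0.458 and 0.453. Here 113 of 410 bins were below 0.5 in F3-152 and 116 in F3-600, and 101 of them were the same bins, which is 89.4% of the F3-152 bins and 87.1% of the F3-600 bins. In B73, 32 bins were below 0.5. These are 27.6%, 28.3% and 7.80% of the bins, each below the genome shares of 31.0%, 31.6% and 15.4%, so low bins were no more common here than elsewhere. From 58 to 60 Mb the F3 lines stood at 1.76 and 1.53, near their level on the far left. Over the right flank as a whole, the Spearman rho was 0.894 between the F3 lines over 781 bins, 0.398 between B73 and F3-152 over 788 and 0.369 between B73 and F3-600 over 781. These bins are the same places of the B73 reference in all 3 libraries. Whether the F3 lines carry its sequence there was not tested.

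Counted over the interval outside the span, 157 of 1423 bins were at least 4-fold lower than B73 in F3-152 (11.03%, against 14.9% in the genome) and 162 in F3-600 (11.4%, against 16.2%). Of these, 148 and 155 lay on the right. Windows of 100 kb that were low in both F3 lines and not in B73 made up 8.75% of the interval, compared with 17.7% of all 21059 windows, and 12 runs of 10 or more such windows were found on chromosomes 1 to 10. The stretch beside the chromosome 8 centromere was therefore 1 of several of its kind, and the interval held a smaller share of low windows than the genome. At least 4-fold higher than B73 were 7 of 1418 flank bins in F3-152 (genome share 0.926%) and 5 of 1416 in F3-600 (genome share 1.05%), so there was no excess of such bins either. Among the flank bins with the highest ratio to B73 in both F3 lines was the bin starting at 57190001, with 17 reads in B73, a level of 0.531, 242 in F3-152, a level of 2.69, and 141 in F3-600, a level of 2.20. Its reads were at the highest mapping quality in 97.5% of cases in F3-152 and 99.3% in F3-600. The bins starting at 49100001 and 59910001 had higher ratios, 5.27 and 5.58 in F3-152 and 5.16 and 6.15 in F3-600, with 20.3% and 67.5% of F3-152 reads and 12.1% and 68.3% of F3-600 reads at that quality. These ratios rest on 10 to 17 B73 reads a bin.

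**Figure D4:**
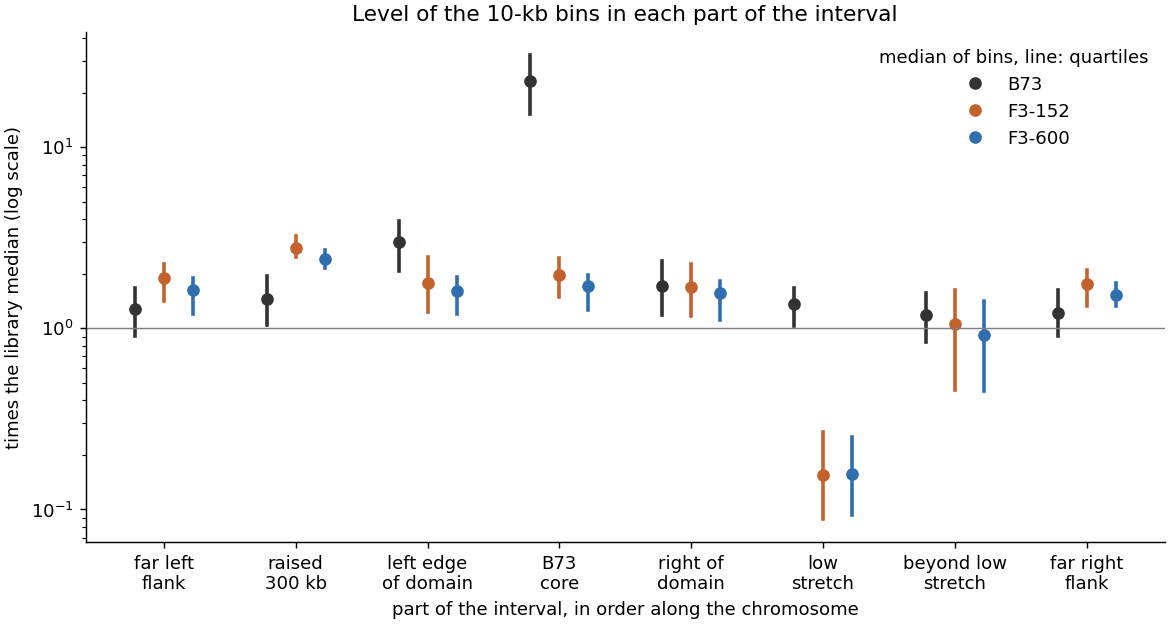
Median level (points) and quartiles (lines) of the 10-kb bins with reads in 8 successive parts of the interval, on a log scale, for the 3 libraries. B73 stands apart in the core at 23.1, both F3 lines are lowest in the low stretch at 0.156, and both are highest in the raised 300 kb at 2.78 and 2.41.

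The enriched bins outside the B73 span formed 2 narrow sites on its left, present in all 3 libraries. The first, from 48850001 to 48880000, had 9302 reads in B73, 15339 in F3-152 and 18341 in F3-600. Its bin starting at 48870001 was the highest of the interval in every library, at levels of 255, 104 and 219. The second, from 49720001 to 49740000, had 528 reads in B73, 3455 in F3-152 and 1839 in F3-600, and its 2 bins were at 11.3 and 5.25 in B73, 20.2 and 18.2 in F3-152, and 18.1 and 10.6 in F3-600.

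These sites had another texture than the B73 core. Of the 60 windows of 500 bp in the first site, 4 held 92.5% of its reads in B73, 5 held 85.5% in F3-152 and 5 held 92.5% in F3-600, and 36, 26 and 28 windows had no read. Only 5.64% of its reads were at the highest mapping quality in B73, 6.51% in F3-152 and 6.16% in F3-600. Duplicates made up 71.7%, 63.2% and 66.5%. In the second site, 10.4%, 14.7% and 10.9% of reads were at the highest mapping quality, and duplicates made up 28.0%, 38.1% and 31.0%. The core of B73, with 61.2% of reads at that quality and 23.6% duplicates, differed from both sites in the first measure. Whether these sites carry CENH3 was not tested, as input DNA was not analysed here.

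**Figure D5:**
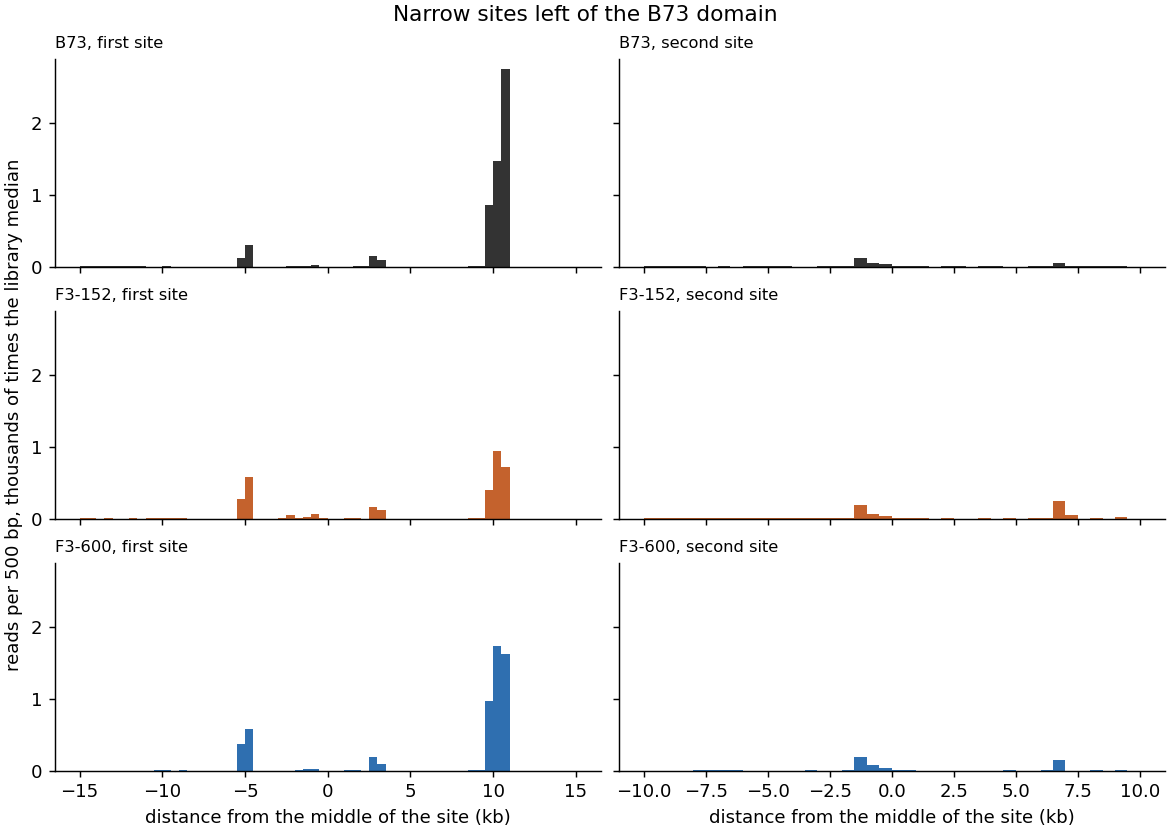
Reads per 500 bp, as a multiple of the typical count of a library for that length divided by 1000, across the first narrow site (left) and the second (right), with distance from the middle of the site in kb. In each library most reads of a site fall in a few windows, 4 to 5 of 60 in the first site and 4 of 40 in the second, and the main peaks stand at the same places in the 3 libraries.

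The F3 lines differed from each other in few bins. F3-152 was at least 4-fold higher than F3-600 in 5 of 1513 bins (0.330%, genome share 3.58%) and F3-600 was at least 4-fold higher in 7 (0.463%, genome share 2.86%). The bin with the most reads among them, starting at 48710001 and singled out after its values were seen, had 284 reads in B73, a level of 8.88, and 505 in F3-152, a level of 5.61. In F3-600 it had 6 reads, a level of 0.0938, from 3 fragments (0.619 to 8.77). Hence B73 and F3-152 shared a high bin near the first narrow site that was nearly empty in F3-600. The highest mapping quality was reached by 16.9% of its B73 reads and 17.2% of its F3-152 reads. The other 11 bins had at most 57 reads in either F3 line.

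The same rule applied to other chromosomes showed where chromosome 8 stood among B73 centromeres. Chromosomes 2, 5 and 9 were chosen with earlier results of these data known. The median core level in B73 was 17.2 on chromosome 2, 26.5 on chromosome 5 and 26.2 on chromosome 9, so that of chromosome 8, at 23.1 with an order-statistic interval of 19.7 to 26.9 over bins, lay within this range. In F3-152 the chromosome 2 core was at 0.989, the chromosome 5 core at 19.9 and the chromosome 9 core at 15.1, compared with 1.98 on chromosome 8. In F3-600 the values were 0.938, 10.98 and 1.64, compared with 1.70 on chromosome 8. Divided by the median of 6 Mb on either side, F3-152 was at 0.840 on chromosome 2 and 1.26 on chromosome 8, and F3-600 was at 0.938 on chromosome 2, 1.21 on chromosome 9 and 1.27 on chromosome 8. The chromosome 8 core of both F3 lines was thus within 1.27 times of its surroundings, as were the chromosome 2 core in both lines and the chromosome 9 core in F3-600. No chromosome 8 core bin was enriched in an F3 line, while 101 of 123 core bins of chromosome 5 and 102 of 135 of chromosome 9 were enriched in F3-152, and 63 of 123 of chromosome 5 in F3-600. These differences between chromosomes have no replicate and were not tested.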

How the data were processed

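The authors digested nuclei with micrococcal nuclease, precipitated DNA with the CENH3 antiserum and sequenced it as paired ends. Per the labels, CASAVA and BWA were used with B73 RefGen_v4. The paper describes the mapping for B73 alone and states that uniquely mapped reads were used. Each line of the deposited tables is 1 aligned read, and its score is the mapping quality from the aligner, between 20 and 60, with no normalization by the authors. The paper does not mention F3-152 or F3-600, and whether duplicates were removed is not given in the sources used here.

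Each read of chromosomes 1 to 10 was placed by its midpoint into 10-kb bins, and bin counts were scaled to the median of the non-empty bins of each library. Bins at 10 times the median or more were merged over gaps of up to 500 kb, and the domain with the most reads was taken as the B73 centromere, with its enriched bins as the core. Bins were compared for a higher level where at least 8 reads were expected in the F3 line from B73, and for a lower level where B73 had reads. Mates were joined by read name, and pairs below 1000 bp gave the lengths. Exact Poisson, binomial and conditional intervals at 95% were computed over fragments, and order-statistic intervals for medians of bins. The regions named were the core blocks, the 5 highest bins of the interval and of the core in each library, enriched runs outside the span and the 5 flank bins with the highest ratio to B73. The raised and the low stretch and their alternatives were added after the levels had been seen. All members, lists and rules were chosen with earlier results of these data known. The rules were tested on simulated data. Computation ran in Python 3.11.15 with NumPy 2.4.6 and SciPy 1.17.1, and plots were drawn with Matplotlib 3.10.9. As sequence and annotation of this build were not used here, genes and repeats in the bins were not analysed here.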

Additional observations from a re-analysis of the deposited data

How the results depend on the processing

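For 29 results, 110 alternative values were computed. In 78 cases the value lay within the limit set for its result, and in 32 it did not. The limit was the counting interval for shares of fragments and 1.5 times for counts of bins or windows. It was a small fixed tolerance for the span, and an order-statistic interval over bins for medians. For ratios of medians it came from the ends of such intervals. No paired analysis was possible because each line has 1 library. Core bins at least 4-fold lower than B73, 107 in each F3 line, numbered 104 to 108 in both with the core called anew by mapping quality, without duplicates or over fragments, and 78 in F3-152 and 88 in F3-600 were at least 10-fold lower. The span of the B73 domain, 1.67 Mb, was 1.45 Mb with bins of 50 kb, 1.15 Mb at 20 times the median and 1.2 Mb when merged over 100 kb. At a threshold of 5 times the median it was 2.34 Mb, starting at 49720001, which takes in the second narrow site. Merged over 1000 kb it was 3.15 Mb, which joins the narrow sites. Enriched bins in the interval, 110 in B73 and 5 in each F3 line, were 65, 3 and 2 at 20 times, and 25, 2 and 1 with bins of 50 kb; at 5 times F3-152 had 8. A core called at 5 times gave a B73 core level of 17.7 and a core to flank ratio of 14.2, and at 20 times 30.7 and 23.4, as a higher threshold keeps higher bins by construction. Flank bins at least 4-fold higher than B73, 7 in F3-152 and 5 in F3-600, were 14 in F3-152 with reads of mapping quality 30 or more, 4 and 3 with duplicates collapsed, and 0 and 0 at 10-fold. Scaling to the median of chromosome 8 gave an F3-152 core level of 1.71 and flank levels of 1.38 in F3-152 and 1.32 in F3-600. The B73 flank level of 1.28 was 1.24 with reads of quality 30 or more and 1.21 with duplicates collapsed. The shares of fragments in the interval, 2.27%, 1.10% and 1.05%, were 2.18%, 1.09% and 1.01% at that quality, and 2.13%, 1.07% and 0.988% with duplicates collapsed. Except for the thresholds and the merging, the cause was not tested. Added after seeing the data, the raised stretch over the left flank was 1.54 and 1.43 in F3-152 and F3-600 with reads of quality 30 or more, and 1.45 and 1.47 with duplicates collapsed, and the low stretch kept 10 windows under both.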
